A study of Homo sapiens with 8 samples.

Results

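The E2F transcription factors and the RB family of pocket proteins were described in nascent RNA of human fibroblasts treated with inflachromene (ICM). The group comprised 10 genes, taken by symbol from the 28265 genes counted: the activators E2F1, E2F2 and E2F3, the repressors E2F4 and E2F5, the atypical repressors E2F7 and E2F8, and the pocket proteins RB1, RBL1 (p107) and RBL2 (p130). The cells were IMR90, a strain of fetal lung fibroblasts. ICM is a small molecule that binds the chromatin proteins HMGB1 and HMGB2, and the treatment was examined as a chemical route into a senescence-like arrest. RNA attached to transcription factories was sequenced (factory RNA-seq) in 8 libraries, 2 for each of 4 conditions. The conditions were low-passage wild-type cells (control, labelled young), low-passage cells given 10 µM ICM for 3 days, low-passage cells given it for 6 days, and low-passage cells labelled MetaICM. Neither the labels nor the methods say what MetaICM is or for how long it was given, so it is named here only as labelled. The vehicle of the control libraries was not stated in their labels, and no label tells whether the 2 libraries of a condition came from separate cultures or from separate isolates, so the p-values measure only the spread between libraries.

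Activator E2Fs bind promoters as dimers with a DP protein and switch on the genes of DNA replication at the passage from G1 into S phase. Pocket proteins hold E2Fs inactive until cyclin-dependent kinases phosphorylate them. RB1 binds mainly the activators, whereas RBL1 and RBL2 bind mainly E2F4 and E2F5 and form, with the MuvB proteins, the DREAM complex of resting cells. E2F7 and E2F8 repress without a pocket protein and act late in S phase, and several genes of the family are themselves E2F targets.

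The promoters are shown first because several carry the sequence that E2F proteins recognise. The 250 bases before the annotated start were searched on both strands for 4 forms of the E2F consensus, TTTCCCGC, TTTCGCGC, TTTGCCGC and TTTGGCGC, which do not overlap one another in these promoters. RefSeq promoter sequences (GRCh38.p14) were present for 8 of the 10 genes, E2F5 and E2F8 being those without one, and each was placed on GRCh37 by an exact match. The entry of RB1 began 172703 bases inside the gene in GRCh37 and was not used further. A consensus was found in 4 of the 8 genes, counting any entry of a gene and keeping RB1, which held none, among the 8. Counted per entry, 979 of 35116 promoters over the whole RefSeq table held one (2.79%). The last 100 bases before the start are printed 5′ to 3′ on the strand of the gene, with the consensus in capitals, for the 3 genes that held one and fell with ICM, for E2F3, which held one and was not called, and for E2F7, which fell and held none.
E2F1: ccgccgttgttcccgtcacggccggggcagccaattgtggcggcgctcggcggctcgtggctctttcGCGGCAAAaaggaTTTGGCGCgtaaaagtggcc
E2F2: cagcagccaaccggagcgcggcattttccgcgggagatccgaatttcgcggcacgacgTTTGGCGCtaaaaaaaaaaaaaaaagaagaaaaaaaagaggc
RBL1: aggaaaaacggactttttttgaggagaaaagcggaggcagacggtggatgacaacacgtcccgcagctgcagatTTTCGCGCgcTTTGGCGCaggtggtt
E2F3: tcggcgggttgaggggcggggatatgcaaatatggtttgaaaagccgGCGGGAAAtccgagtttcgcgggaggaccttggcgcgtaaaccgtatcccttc
E2F7: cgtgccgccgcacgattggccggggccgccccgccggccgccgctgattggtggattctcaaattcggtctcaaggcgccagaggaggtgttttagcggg
These windows lie in GRCh37 at chr20:32274192-32274291 (E2F1, minus strand), chr1:23857726-23857825 (E2F2, minus strand), chr20:35724401-35724500 (RBL1, minus strand), chr6:20402010-20402109 (E2F3, plus strand) and chr12:77459350-77459449 (E2F7, minus strand), each directly upstream of the first exon.

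E2F1 held 2 matches, beginning 33 and 20 bases before the start, and RBL1 also held 2, at 26 and 16 bases. E2F2 held 1 at 42 bases and E2F3 held 1 at 53 bases. A second entry of E2F3, starting 1735 bases inside the gene, held none. No match was found in E2F4, E2F7 or either entry of RBL2 in this window. Of 17 G1/S target genes with an entry, E2F1 and RBL1 among them, 11 held a match (64.7%), and of all 27305 genes with an entry, 928 did (3.4%). A match is a string of letters, not a measured binding site.

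**Figure D1:**
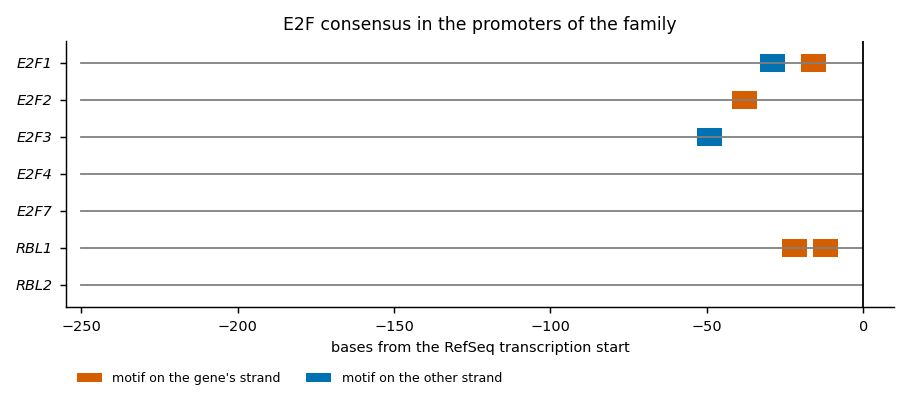
Position of the E2F consensus in the 250 bases before the RefSeq start of 7 family genes, by the first entry of each. The x axis gives bases from the start, boxes are matches of 8 bases coloured by strand, and all 6 matches lie within 53 bases of the start.

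The libraries held between 12095123 and 23166405 exonic read counts. Markers of fibroblasts were abundant, at a summed 20357 to 59316 CPM (read counts relative to library size, scaled between libraries by the TMM method of edgeR) over 8 genes. Markers of epithelial, endothelial, blood and muscle cells summed to between 1.35 and 3.69 CPM over 7 genes, and CD3E was at 0 in every library. The fibroblast sum was 52666 and 59316 CPM in control, 25690 and 27178 after 3 days, 20357 and 20532 after 6 days, and 33556 and 36438 in MetaICM. The summed CPM of 4 proliferation markers (MKI67, TOP2A, CCNB1, PLK1) was 1530 and 1612 in control, 94.9 and 113 after 3 days, 73.4 and 77.2 after 6 days, and 819 and 810 in MetaICM. These markers move with the results on the E2F genes given here, and their part in those results was not tested. In such bulk libraries, fewer cells in cycle and less RNA per cell cannot be told apart.

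In GRCh37 the activator genes are E2F1 on chromosome 20 at 32263283 to 32274191 (minus strand), E2F2 on chromosome 1 at 23832930 to 23857725 (minus strand) and E2F3 on chromosome 6 at 20402110 to 20493945 (plus strand). The repressor genes include E2F4 on chromosome 16 at 67226058 to 67232821 (plus strand), E2F7 on chromosome 12 at 77415031 to 77459349 (minus strand) and E2F8 on chromosome 11 at 19245610 to 19263202 (minus strand). The pocket protein genes are RB1 on chromosome 13 at 48877883 to 49056026 (plus strand), RBL1 on chromosome 20 at 35624755 to 35724400 (minus strand) and RBL2 on chromosome 16 at 53468383 to 53525560 (plus strand). Counts were taken over the exons of each gene.

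Per kb of exon, the family spanned more than an order of magnitude in control cells. E2F4 (14.8 to 21.2 CPM per kb) and RB1 (17.6 to 18.0) stood highest and overlapped. RBL2 (8.01 to 9.03) and RBL1 (8.39 to 8.51) followed and also overlapped, and below them came E2F3 (7.15 to 7.39), E2F7 (4.08 to 5.06), E2F1 (3.08 to 3.83), E2F8 (2.18 to 2.67), E2F5 (1.56 to 1.6) and E2F2 (1.14 to 1.19) with no overlap between neighbours. After 6 days of ICM the same scale ran from RB1 (18.7 to 22.2) and E2F4 (18.8 to 19.2), which overlapped, down to E2F8 (0.0817 to 0.0940) and E2F2 (0.0311 to 0.0613). RBL2 (7.17 to 7.18) and E2F3 (6.23 to 6.89) came next, and RBL1 (1.68 to 2.01) now lay below both. The top of the order was held, as in control, by E2F4 and RB1, which were not called against control, and E2F2 was last in both. E2F8 had ranked above E2F5 in control and lay below it after 6 days.

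**Figure D2:**
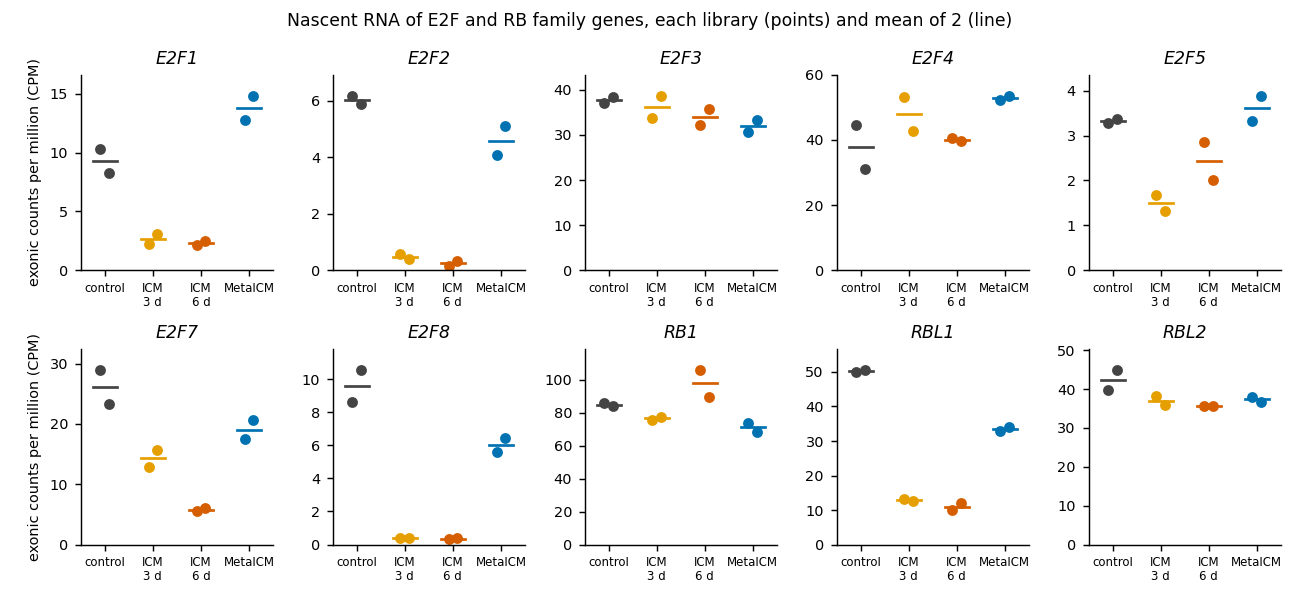
Nascent RNA of the 10 genes in CPM (y axis, from 0) in each library (points) of the 4 conditions, with the mean of the 2 libraries as a line. E2F1, E2F2, E2F5, E2F7, E2F8, RBL1 and, by a smaller margin, RBL2 lie lower in all 4 ICM libraries than in both control libraries. The share of all genes that do so was not counted. E2F3, E2F4, RB1 and RBL2 stay within a narrower band.

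In ICM-treated cells the family separated. A gene was called at an adjusted p under 0.05 (edgeR quasi-likelihood test, Benjamini-Hochberg adjustment over all genes tested) together with an absolute log2 fold change over 0.6. After 3 days 6 of 10 genes were lower (E2F1, E2F2, E2F5, E2F7, E2F8 and RBL1), where 13.2% of all 15692 genes tested were called lower, and none was higher, where 8.85% of all genes were. After 6 days 5 of 10 were lower (the same genes without E2F5), where 17.2% of all 15950 genes were called lower, and none was higher, where 13.3% were. The median log2 fold change of the 10 genes was -1.01 after 3 days and -1.23 after 6 days, beside 0.01 and 0.00 over all genes tested. With library totals in place of TMM, 1785 genes were called higher and 1767 lower after 3 days (50.3% higher, against 40.2% with TMM), and the counts for the family stayed at 6 lower and 0 higher. The comparisons of 3 and of 6 days share the control libraries.

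E2F1, the founding activator, was found at 10.3 and 8.27 CPM in control. It was found at 2.23 and 3.12 CPM after 3 days and at 2.15 and 2.50 after 6 days, and the treated libraries did not overlap the control ones. This gave a log2 fold change of -1.82 ± 0.26 (SE, n = 2 against 2, edgeR adjusted p = 0.000259) after 3 days and -2.01 ± 0.23 (edgeR adjusted p = 7.24e-05) after 6 days, 3.54 and 4.03-fold lower.

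E2F2, another activator, fell to a few counts per library. It was at 6.19 and 5.90 CPM in control (104 and 72 counts), at 0.56 and 0.40 CPM after 3 days (12 and 6 counts), and at 0.16 and 0.32 CPM after 6 days (3 and 6 counts). The log2 fold change was -3.62 ± 0.34 (edgeR adjusted p = 8.43e-06) after 3 days and -4.62 ± 0.37 (edgeR adjusted p = 5.5e-06) after 6 days. The 9 counts of both 6-day libraries carry an exact Poisson 95% interval of 4.12 to 17.1, or 0.11 to 0.458 CPM of the library totals, so the depth of the fall is loosely bounded. This interval covers counting error only. E2F2 shares 56 of its 5196 exon bases with LOC101928163 on the opposite strand.

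E2F3, the third activator, did not follow. It was at 37.1 and 38.3 CPM in control, 33.7 and 38.8 after 3 days, 32.3 and 35.7 after 6 days, and 30.7 and 33.3 in MetaICM. The log2 fold change against control was -0.07 ± 0.14 (edgeR adjusted p = 0.758), -0.16 ± 0.13 (0.338) and -0.25 ± 0.12 (0.143) in that order, all inside the 0.6 limit, and the 3-day value turned to 0.01 with library totals. E2F3 made up 58.7% and 63.7% of the summed per-kb level of the 3 activators in control, 87.4% and 85.8% after 3 days, and 88.2% and 87.4% after 6 days. In MetaICM its share was 51.6% and 49.6%, below both control libraries. E2F3 was therefore already the larger part of the activators as counted in control, and its share was higher in the ICM libraries.

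E2F4, the main E2F partner of RBL1 and RBL2, was at 44.7 and 31.1 CPM in control, the widest gap between control libraries among the genes above 20 CPM. It was at 53.3 and 42.9 CPM after 3 days and at 40.4 and 39.6 after 6 days, overlapping control. Its log2 fold change was 0.33 ± 0.18 (edgeR adjusted p = 0.182) after 3 days and 0.06 ± 0.16 (0.782) after 6 days. Without control replicate 1, the 3-day value was 0.62, past the 0.6 limit, so a single control library decides its side of that limit. With replicate number as a block the 3-day value was 0.34 ± 0.115 (edgeR adjusted p = 0.01), under the adjusted threshold but inside the 0.6 limit.

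E2F5, its closest relative, was low throughout, at 3.27 and 3.36 CPM in control, 1.67 and 1.33 after 3 days, 2.85 and 2.02 after 6 days and 3.32 and 3.89 in MetaICM. It was called lower only after 3 days (log2 fold change -1.13 ± 0.31, edgeR adjusted p = 0.0174), and the 6-day value was -0.46 ± 0.28 (0.215). The direct comparison of 6 with 3 days gave 0.67 ± 0.32 (edgeR adjusted p = 0.148), so a return by 6 days was not shown. The 3-day call was lost with DESeq2 (adjusted p = 0.0655) and when either 3-day library was left out (edgeR adjusted p = 0.0606 and 0.106). E2F5 shares 471 of its 2096 exon bases with RBIS on the opposite strand, and reads on shared bases were counted for neither gene.

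E2F7, an atypical repressor, fell in steps. It was at 29.0 and 23.4 CPM in control, at 12.9 and 15.7 after 3 days and at 5.60 and 6.00 after 6 days, and no library of a condition overlapped those of another among these 3. In log2 fold change this was -0.89 ± 0.18 (edgeR adjusted p = 0.00257) after 3 days and -2.19 ± 0.17 (4.6e-06) after 6 days. Compared directly, the 6-day libraries were 2.46-fold lower than the 3-day libraries (log2 fold change -1.30 ± 0.17, edgeR adjusted p = 2.21e-05). E2F7 was the 1 gene called lower of the 8 tested between the time points, where 4.54% of all 15845 genes were called lower, and none of the 8 was higher, where 3.53% were. This call was kept under 9 of 9 other settings that used all libraries.

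E2F8, the other atypical repressor and the least expressed of the pair, dropped to a few counts per library. It was at 8.63 and 10.6 CPM in control (145 and 129 counts), at 0.42 and 0.40 CPM after 3 days (9 and 6 counts) and at 0.32 and 0.37 CPM after 6 days (6 and 7 counts). The log2 fold change was -4.53 ± 0.33 (edgeR adjusted p = 8.88e-07) after 3 days and -4.76 ± 0.32 (1.46e-06) after 6 days, and with E2F2 the steepest falls of the family by fitted value. Exact Poisson 95% intervals of 8.4 to 24.7 for the 15 counts at 3 days and 6.92 to 22.2 for the 13 counts at 6 days overlapped. E2F2 and E2F8 were too low for the test between the time points. Without the filter on low counts their 6-day against 3-day log2 fold changes were -1.001 ± 0.72 (edgeR adjusted p = 0.466) and -0.23 ± 0.69 (0.878).

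The atypical repressors thus kept different proportions to E2F1. Per kb, E2F7 was 1.32 and 1.33 times E2F1 in control, 2.72 and 2.36 times after 3 days, 1.22 and 1.13 times after 6 days and 0.645 and 0.651 times in MetaICM. E2F8 was 0.570 and 0.869 times E2F1 in control, 0.128 and 0.0868 after 3 days, 0.102 and 0.101 after 6 days and 0.298 and 0.296 in MetaICM. The ratio of E2F7 to E2F1 was thus highest at 3 days and lowest in MetaICM, with no overlap between conditions.

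RB1, the retinoblastoma protein gene, was the most abundant of the pocket proteins and changed little in CPM. It was at 85.8 and 83.7 CPM in control, at 75.3 and 77.5 after 3 days and at 106 and 89.4 after 6 days. The log2 fold change against control was -0.16 ± 0.12 (edgeR adjusted p = 0.37) after 3 days and 0.19 ± 0.12 (0.225) after 6 days, on opposite sides of 0. Between the time points it was 0.35 ± 0.10 (edgeR adjusted p = 0.0192), higher at 6 days but inside the 0.6 limit.

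RBL1, a pocket protein that rises in cycling cells, fell by an amount close to that of E2F1. It was at 49.9 and 50.6 CPM in control, at 13.2 and 12.5 after 3 days and at 9.96 and 12.0 after 6 days, with the control libraries far above all 4 treated ones. Against control RBL1 gave a log2 fold change of -1.98 ± 0.15 (edgeR adjusted p = 9.73e-07) after 3 days and -2.21 ± 0.15 (1.3e-06) after 6 days. Between the time points it was -0.24 ± 0.15 (edgeR adjusted p = 0.302).

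RBL2, the pocket protein typical of resting cells, was at 39.9 and 45.0 CPM in control, at 38.2 and 35.9 after 3 days and at 35.8 and 35.7 after 6 days. The treated libraries lay just below the control ones, with log2 fold changes of -0.20 ± 0.14 (edgeR adjusted p = 0.311) and -0.26 ± 0.13 (0.128), and neither was called. RBL2 shares 609 of its 4980 exon bases with AKTIP on the opposite strand. Because RBL1 fell and RBL2 was near its control level, the per-kb ratio of RBL2 to RBL1 moved from 0.955 and 1.06 in control to 3.47 and 3.43 after 3 days and 4.29 and 3.57 after 6 days. In MetaICM it was 1.38 and 1.29, between the control and the ICM values.

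**Figure D3:**
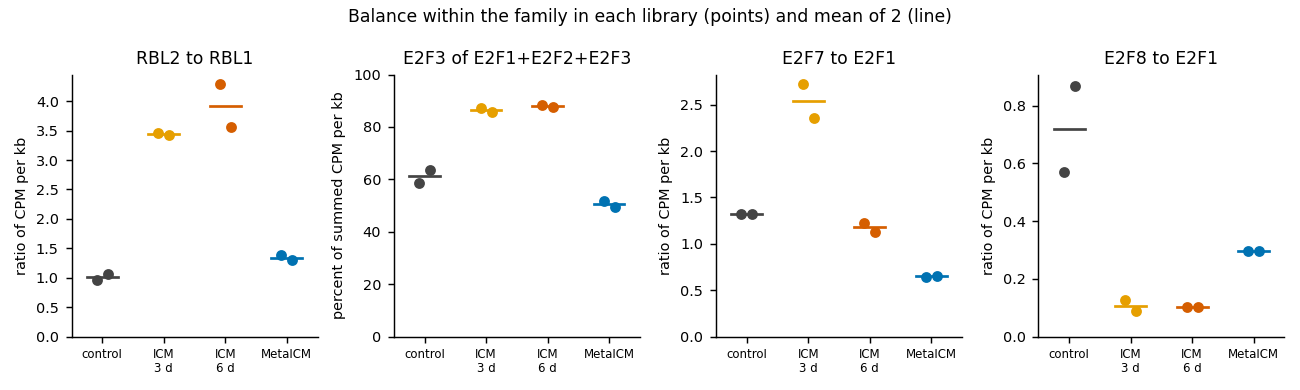
Proportions within the family in each library (points; line, mean of 2) on the per-kb scale, with y axes from 0. RBL2 to RBL1 is near 1.01 in control and 3.45 to 3.93 on average with ICM, the E2F3 share of the activators lies at 86.6 and 87.8% with ICM, and the ratios of E2F7 and E2F8 to E2F1 differ in their course.

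The MetaICM libraries were compared with control in the same way, and most genes of the family, like most of all genes tested, were not called. Against control 2 of 10 genes were called lower (E2F8 and RBL1), where 8.99% of all 15904 genes tested were, and none was higher, where 7.41% were. The median log2 fold change of the 10 genes was -0.26. E2F8 was at 5.61 and 6.47 CPM in MetaICM (log2 fold change -0.68 ± 0.19, edgeR adjusted p = 0.0276) and RBL1 at 32.9 and 34.0 CPM (-0.60 ± 0.12, edgeR adjusted p = 0.00506), both below their control libraries. These calls stood close to the limits: RBL1 was called in 5 of 9 other settings, its log2 fold change lying between -0.62 and -0.57, and E2F8 in 7 of 9. When either MetaICM library, or control replicate 2, was left out, neither gene was called.

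E2F1 was at 12.8 and 14.9 CPM in MetaICM, above both control libraries, with a log2 fold change of 0.55 ± 0.17 (edgeR adjusted p = 0.0382), which is inside the 0.6 limit. E2F7 was at 17.6 and 20.6 CPM, below both control libraries (-0.48 ± 0.15, edgeR adjusted p = 0.0397), also inside the limit. E2F2 was at 4.07 and 5.12 CPM (-0.41 ± 0.21, edgeR adjusted p = 0.172). The activator E2F1 therefore lay above control in MetaICM. The 2 atypical repressors and the activators E2F2 and E2F3 (-0.25 ± 0.12) lay below it. Of these genes only E2F8 was called. E2F4, at 52.3 and 53.6 CPM, missed the threshold (0.46 ± 0.16, edgeR adjusted p = 0.0506), but both E2F1 (0.72) and E2F4 (0.75) met the call when control replicate 1 was left out, as did E2F7 (-0.61) without control replicate 2. E2F5, RB1 (73.9 and 68.2 CPM) and RBL2 (38.1 and 36.8 CPM) gave log2 fold changes of 0.11 ± 0.24, -0.27 ± 0.11 and -0.20 ± 0.12, and none met the adjusted threshold (edgeR adjusted p = 0.76, 0.0857 and 0.259).

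Against the ICM libraries, MetaICM was called higher for most of the genes that ICM lowered. Against 6 days, 5 of 10 genes were higher (E2F1, E2F2, E2F7, E2F8 and RBL1), where 15.7% of all 16036 genes tested were, and none was lower, where 12.0% were. Against 3 days, 5 of 10 were higher (E2F1, E2F2, E2F5, E2F8 and RBL1), where 13.1% of all 16209 genes were, and none was lower, where 10.3% were. These comparisons share the MetaICM libraries. They also share the ICM libraries with the comparisons of ICM against control, so these calls and those against control are not independent. E2F1 was 5.92-fold above the 6-day level (log2 fold change 2.57 ± 0.18, edgeR adjusted p = 9.42e-11) and 5.26-fold above the 3-day level (2.39 ± 0.20, edgeR adjusted p = 2.71e-07). E2F2 differed from 6 days by 4.22 ± 0.37 (edgeR adjusted p = 3.84e-09) and E2F8 by 4.09 ± 0.31 (3.66e-10), both against ICM levels of a few counts. RBL1 was 3.04-fold above 6 days and 2.6-fold above 3 days.

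E2F7 and E2F5 differed in this comparison. E2F7 was 3.28-fold above its 6-day level (1.71 ± 0.14, edgeR adjusted p = 1e-09) but only 0.42 ± 0.14 above its 3-day level on the log2 scale (edgeR adjusted p = 0.0242), inside the 0.6 limit. E2F5 was 2.37-fold above its 3-day level (1.24 ± 0.27, edgeR adjusted p = 0.00186) and missed the threshold against 6 days (0.57 ± 0.24, edgeR adjusted p = 0.0513), although it met the call without ICM 6 days replicate 1 (0.83) or without MetaICM replicate 1 (0.68). RB1 was lower in MetaICM than at 6 days by -0.46 ± 0.08 (edgeR adjusted p = 8.13e-05) and E2F4 higher by 0.40 ± 0.08 (0.000222), both inside the limit. E2F3 and RBL2 gave values between -0.18 and 0.06 in these comparisons and none met the threshold.

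**Figure D4:**
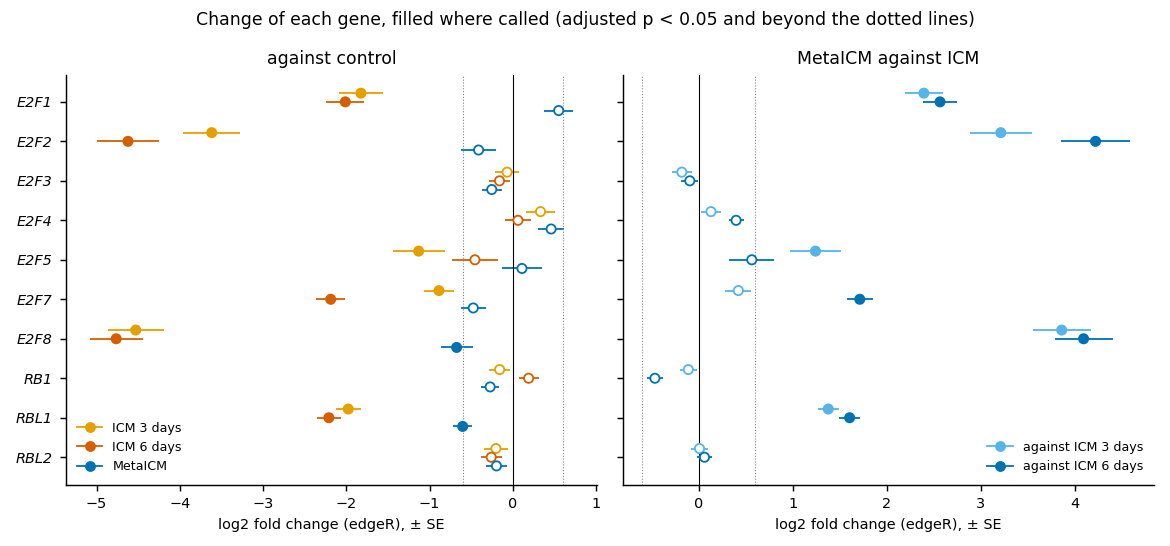
Log2 fold changes (x axis, edgeR, bars ± SE) of the 10 genes against control (left) and of MetaICM against both ICM conditions (right), filled where called. E2F1, E2F2, E2F7, E2F8 and RBL1 lie left of -0.6 in both ICM comparisons, whereas E2F3, E2F4, RB1 and RBL2 lie between the dotted lines throughout.

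Genes around the family were taken from lists. The list of G1/S targets held 19 genes besides E2F1 and RBL1. Of these, 17 were lower after 3 days and 16 after 6 days, where 13.2% and 17.2% of all genes were, none was higher, and the medians were -1.94 and -1.98 on the log2 scale, beside 0.01 and 0.00 over all genes. MCM5, a subunit of the replicative helicase, changed by -2.55 ± 0.18 (edgeR adjusted p = 7.29e-07) after 3 days and -3.05 ± 0.19 (7.48e-07) after 6 days. RRM2, which makes deoxynucleotides, changed by -3.01 ± 0.14 (edgeR adjusted p = 2.39e-08) and -2.98 ± 0.12 (7.38e-08). PCNA, the sliding clamp of replication, was not called, at -0.40 ± 0.13 (edgeR adjusted p = 0.0438) and -0.38 ± 0.12 (0.0244), and PCNA shares 373 of its 1399 exon bases with PCNA-AS1 on the opposite strand. In MetaICM none of the 19 was called against control, where 8.99% of all genes were lower and 7.41% higher, and their median was -0.15. Of the 19, 17 were higher than at 6 days and 17 higher than at 3 days, where 15.7% and 13.1% of all genes were. The summed level of all 21 targets was 1320 and 1096 CPM in control, 329 and 311 after 3 days, 288 and 297 after 6 days, and 1049 and 1095 in MetaICM.

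Among 10 E2F partners and DREAM components, 3 were lower after 3 days (13.2% of all genes), and 4 were lower and 1 higher after 6 days (17.2% and 13.3% of all genes). MYBL2, which replaces the pocket protein on MuvB in cycling cells, changed most, by -3.09 ± 0.26 (edgeR adjusted p = 3.2e-06) and -3.98 ± 0.24 (7.53e-07). TFDP1, the DP partner of E2F, was lower by a smaller amount (-0.75 ± 0.14, edgeR adjusted p = 0.00199, and -0.81 ± 0.14, 0.00111). LIN9 of the MuvB core was lower at -1.53 ± 0.25 (edgeR adjusted p = 0.000594) and -1.49 ± 0.26 (0.0011), whereas LIN37 was higher after 6 days (0.71 ± 0.20, edgeR adjusted p = 0.0159). E2F6, a repressor that binds no pocket protein and is not among the 10 genes, was at 14.5 and 13.7 CPM in control and at 20.6 and 19.3 after 3 days, above both, with a log2 fold change of 0.49 ± 0.16 (edgeR adjusted p = 0.0381) inside the limit. Its MetaICM level was lower than that at 3 days (-0.72 ± 0.13, edgeR adjusted p = 0.000343). Against control 1 of the 10, LIN52 of the MuvB core, was lower in MetaICM (-0.82 ± 0.19, edgeR adjusted p = 0.0118), where 8.99% of all genes were.

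The kinases and cyclins that phosphorylate pocket proteins did not move as one. Of 9 genes, 4 were lower and 1 higher after 3 days, and the same counts were found after 6 days, beside 13.2% lower and 8.85% higher of all genes after 3 days and 17.2% and 13.3% after 6 days. CCNA2, the A-type cyclin of S phase, was lower at -2.38 ± 0.15 (edgeR adjusted p = 2.13e-07) and -2.21 ± 0.13 (6.76e-07), and CCND3 was higher at 0.94 ± 0.22 (0.00662) and 1.52 ± 0.21 (0.000254). In MetaICM 3 of the 9 were higher than in control, where 7.41% of all genes were, and none was lower, where 8.99% were. The 3 were the D-type cyclins CCND1 (1.37 ± 0.14, edgeR adjusted p = 0.000196), CCND2 (1.71 ± 0.12, 3.76e-05) and CCND3 (0.87 ± 0.21, 0.0131). CCND2 was lower than control with ICM, by -1.51 ± 0.18 (edgeR adjusted p = 5.3e-05) and -0.77 ± 0.15 (0.00231), the opposite side from MetaICM. The direct comparison of MetaICM with 6 days gave 2.48 ± 0.09 for CCND2 (edgeR adjusted p = 1.46e-15).

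Of 7 genes for kinase inhibitors, 2 were higher and 2 lower at either time, against the same shares of all genes. CDKN1A and CDKN2B were higher at both times. CDKN2C was lower at both times, CDKN1B only after 3 days and CDKN1C only after 6 days. CDKN1A (p21) was found at a mean of 116 CPM in control, 724 after 3 days, 799 after 6 days and 380 in MetaICM. Its log2 fold change was 2.63 ± 0.18 (edgeR adjusted p = 5.39e-07) after 3 days, 2.77 ± 0.16 (6.45e-07) after 6 days and 1.70 ± 0.16 (0.000133) in MetaICM, and MetaICM lay below the 6-day level by -1.08 ± 0.08 (1.07e-10). CDKN2C (p18) went the other way with ICM, at -2.88 ± 0.28 (edgeR adjusted p = 9.03e-06) and -2.67 ± 0.25 (1.58e-05), and was not called in MetaICM (-0.25 ± 0.18, edgeR adjusted p = 0.307). CDKN2A (p16 and ARF, counted together) was near 3 to 5 CPM and was not called against control in any condition (edgeR adjusted p = 0.899, 0.44 and 0.0688). Of 8 genes for corepressors that RB recruits, SUV39H1, a histone methyltransferase, was called lower at either time (-1.20 ± 0.26, edgeR adjusted p = 0.00476, and -1.48 ± 0.23, 0.000583), and the other 7 were not called, where 13.2% and 17.2% of all genes were lower. Of the list genes named here, CCNA2, CCND2, CDKN1A, CDKN2A and PLK1 share 254, 126, 238, 344 and 58 exon bases with genes on the opposite strand, and reads on shared bases were counted for neither gene.

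Of 8 fibroblast markers, 6 were lower after 3 days and 5 after 6 days, where 13.2% and 17.2% of all genes were. In MetaICM 1 was higher and 1 lower than in control, where 7.41% and 8.99% of all genes were. All 4 proliferation markers were lower at both times and 3 of the 4 in MetaICM, beside the same shares of all genes called lower. Their median in MetaICM was -0.80. The members of these lists were chosen with earlier results of these data known, so their counts are descriptions.

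**Figure D5:**
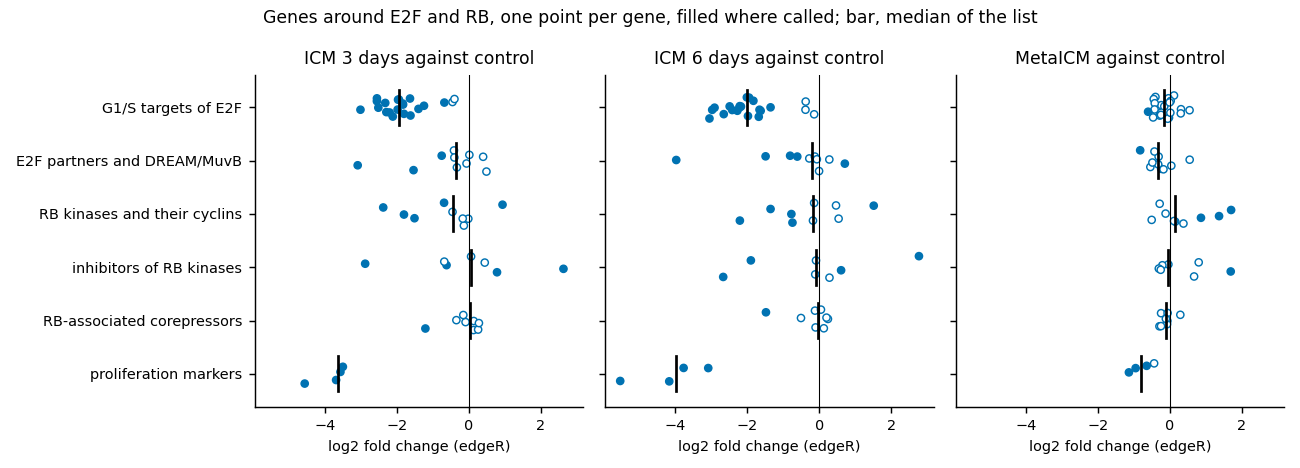
Log2 fold changes against control (x axis, edgeR) of the genes of 6 lists, 1 point per gene, filled where called, with the list median as a bar. The G1/S targets and the proliferation markers lie left of 0 with ICM, and in MetaICM the G1/S targets centre on -0.15, E2F1 and RBL1 included.

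The genes with the course most like each family member over the 8 libraries were found by the root mean square difference of centred log2(CPM + 0.5) among 12433 genes. For E2F8 these were TPX2, NDC80 and PLK1 (0.124, 0.129 and 0.134, beside a root mean square of 1.62 for the course of E2F8 itself). At 0.32 to 0.42 CPM with ICM, E2F8 lay below the 0.5 added before the logarithm, which shrinks its fall on this scale. The tested log2 fold changes against control after 3 and 6 days were -4.53 and -4.76 for E2F8, beside -3.57 and -3.77 for PLK1. For RBL1 they were KNTC1, RFC3 and ZYG11A (0.093 to 0.105, beside 0.905). For E2F1 the nearest genes were farther off, APOBEC3B, SCARA3 and ALPL (0.189 to 0.228, beside 1.02), and for E2F7 they were TPM1, PDLIM7 and ARSI (0.142 to 0.179, beside 0.782). E2F2 was nearest to ICAM1, WDR62 and ACTG2 (0.098 to 0.140, beside 1.40), where its few counts after ICM set the precision and the added 0.5 also shrinks its fall. For E2F3, E2F4, E2F5, RB1 and RBL2, whose courses varied little (0.104 to 0.428), the differences of 0.032 to 0.122 separate the nearest genes less.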

How the data were processed

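Factory RNA-seq libraries of IMR90 cells, 2 per condition, were counted by the authors and deposited as raw read counts per gene. Per the file headers, featureCounts 1.6.3 summed read pairs over the exons of RefSeq genes (hg19) without regard to strand, keeping pairs with both ends mapped and leaving out chimeric pairs. Per the labels, reads were aligned with STAR 2.6.0c. Reads falling on several genes were not counted. The counts used here are exonic; intronic reads were not analysed here. The labels describe poly(A) selection, and the methods apply the factory protocol and refer back to a library preparation with poly(dT) selection, so spliced RNA may be part of the counts.

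Library totals ran from 12095123 to 23166405. The 2 libraries of each condition differed by more than sampling noise (chi-square per degree of freedom 6.9 to 30 over genes with a mean of at least 50 counts), and their median absolute log2 difference was 0.094 to 0.195. CPM were scaled by TMM over 8 libraries and divided by exon length where genes were compared. Tests used edgeR 4.0.16 in R 4.3.3 (quasi-likelihood, TMM, filterByExpr with a minimum of 10 counts, pairwise fits of 4 libraries, Benjamini-Hochberg over all genes tested), and ± is the SE of the log2 fold change. A gene was called at an adjusted p under 0.05 and an absolute log2 fold change over 0.6. The script was tested on simulated data.

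The family members, the gene lists and the rule for named genes (all members, the genes of the fixed lists, and for each member the 3 genes of most similar course) were chosen with earlier results of these data known. Groups were taken from sample titles. Replicate numbers share no stated origin between conditions. The correlation of replicate differences between conditions over 12433 genes ran from -0.201 (ICM 3 days with MetaICM) to 0.329 (control with ICM 3 days). Its sign differed between pairs of conditions, and the numbers were not used as pairs in the main tests. Alternatives were DESeq2 1.42.0, other scalings, other filters, a stricter adjusted p of 0.01, 1 fit of all libraries, a replicate block and leaving out each library.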

Additional observations from a re-analysis of the deposited data

Results flagged for a closer look

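Of the family and list genes, 17 differed between the effects of 3 and of 6 days of ICM, by the direct test of the 6-day against the 3-day libraries (edgeR adjusted p under 0.05). Of these, 7 also passed the limit of 0.6 for a call and 10 did not. Over all 15845 genes tested, 3.53% were called higher and 4.54% lower, which are shares to set beside the 7 calls. The share of all genes under the adjusted p alone was not counted, so the 17 have no such share beside them. The calls were 1 of 8 family members, 2 of 9 RB kinases and cyclins, and 1 of 7 kinase inhibitors. They were also 1 of the 19 other G1/S targets, 1 of 8 fibroblast markers and 1 of 4 proliferation markers. None of the 10 E2F partners or 8 corepressors was called. In the family, the log2 fold change at 6 relative to 3 days was -1.30 for E2F7, which was called, and 0.35 for RB1, which lay inside the limit. Among the RB kinases and cyclins it was 0.70 for CCND1 and 0.73 for CCND2, both called, and 0.60 for CDK6 and 0.57 for CCND3, which were not. The kinase inhibitor gene CDKN1C was called at -1.22, and CDKN1B gave 0.52 inside the limit. Among the G1/S targets UHRF1 was called at -0.71, and MCM5 (-0.50) and MCM7 (-0.55) lay inside the limit. The collagen gene COL1A1 was called at -0.94, and the other fibroblast markers PDGFRB (-0.39), FN1 (-0.43) and LUM (0.45) were not. The proliferation marker MKI67 was called at -0.97, and TOP2A gave -0.48 inside the limit. The effects at both times share the control libraries, which drop out of this comparison. No explanation of these differences was tested.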

How the results depend on the processing

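Of 58 log2 fold changes of family members, 24 were called. With all libraries in use, E2F5 at 3 days lost its call with DESeq2 and at an adjusted p under 0.01, and E2F8 and RBL1 in MetaICM against control lost theirs under the settings given next. The number of members lower in MetaICM than control was 2, and was 1 with adjusted p under 0.01, DESeq2, library totals, 10 counts in every library, no filter, or all 8 libraries in one fit. Requiring 10 counts in every library removed E2F2 and E2F8 from the ICM tests, leaving 3 members lower at 6 days, and 3 members higher in MetaICM than at 6 days and at 3 days. At an adjusted p under 0.01, 664 genes were higher and 868 lower in MetaICM than control. E2F3 at 3 days turned to 0.008 with library totals, and RBL2 in MetaICM against 3 days, at 0.010, turned to -0.003 with DESeq2 and with RLE size factors, -0.045 with library totals and -0.011 with upper-quartile factors. None of these values met the threshold. The causes were not tested.

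Leaving out 1 library at a time moved members higher at 3 days between 0 and 1 (E2F4, without control replicate 1), and members higher in MetaICM than control between 0 and 2 (E2F1 and E2F4, without control replicate 1). Members lower in MetaICM than control ran from 0 (without either MetaICM library) to 2. Over all genes, the count higher at 3 days ran from 851 (without ICM 3 days replicate 1) to 1898. In MetaICM against control, the count higher ran from 469 (without MetaICM replicate 2) to 2116 (without control replicate 1) and the count lower from 580 to 1970. A condition left with 1 library was assumed to vary like the other. Log2 fold changes that crossed 0 were those of E2F3 at 3 days (-0.170 to 0.036), E2F4 at 6 days (-0.159 to 0.334), E2F1 (-0.445 to 0.061) and E2F3 (-0.208 to 0.017) at 6 against 3 days, and RBL2 in MetaICM against 3 days (-0.017 to 0.036), and none of these was called.

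With replicate number as a block, 1606 genes were higher and 2309 lower at 3 days, beside 1389 and 2067 without it, and the member counts were 6 lower at 3 days, 5 lower at 6 days and 2 lower in MetaICM, the same numbers as without the block. In MetaICM against 3 days, where same-numbered libraries deviated in opposite directions (r = -0.201), a crossed pairing chosen after seeing the data gave 2182 genes higher and 1774 lower, and 5 members higher. Depth limits E2F2 and E2F8 in the ICM libraries, where each library held 3 to 12 counts.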
